A study of Homo sapiens with 12 samples.

Results

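The matrix metalloproteinase (MMP) genes of 11q22 are 9 neighbouring genes, MMP7, MMP20, MMP27, MMP8, MMP10, MMP1, MMP3, MMP12 and MMP13 in the order of the chromosome, all transcribed from the reverse strand. They were taken by name, several of them because their products belong to the senescent secretome, and they are 9 of the 19970 protein-coding genes of GENCODE release 44 on chromosomes 1 to 22 and X. The cluster window ran from the first to the last of these genes with 20 kb on each side, chr11:102500508-102975732 in hg38, a length of 475225 bp. H3K27me3, the trimethylation of lysine 27 of histone H3, was profiled by ChIP-seq in SH-SY5Y cells, a human neuroblastoma line, which either expressed Tau (WT) or had the MAPT gene knocked out (Tau-KO). The Tau-KO cells were the lines 231K and 232P. WT, 231K and 232P are called the 3 genotypes below, although 231K and 232P are both Tau-KO. Each had 2 ChIP samples, described as biological duplicates. Single peaks in both lists labelled 232P carry names that begin with 231P, which the study's methods give as another Tau-KO line, and the labels were followed here, so that every 232P value is that of a library labelled 232P. All 3 genotypes were cultured alike and no other agent is named. The methods refer elsewhere for the origin of the Tau-KO lines and name CRISPR-Cas9 for a related line. Whether each Tau-KO line is 1 clone is not given in the sources used here. A line and the knock-out of MAPT cannot be told apart within 1 line. The 6 matched inputs were not analysed here.

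Matrix metalloproteinases are secreted or membrane-bound zinc endopeptidases that cut collagens, proteoglycans and other matrix proteins, and they are made as inactive proenzymes that other proteases, plasmin among them, can open. MMP1, MMP8 and MMP13 are collagenases, MMP3 and MMP10 are stromelysins, MMP7 is matrilysin, MMP12 is the elastase of macrophages and MMP20 is enamelysin of developing teeth. Stromal cells that turn senescent often secrete MMP1, MMP3 and MMP10. H3K27me3 is placed by the Polycomb Repressive Complex 2 and marks genes kept silent, often over wide domains. The ChIP-seq comparison asked how the mark differs between Tau-KO and Tau-expressing cells. No RNA was measured in these samples, so the values below are on chromatin only.

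The promoter window of a gene, 300 bases that end shortly after its start, was in the RefSeq table (GRCh38.p14) for 5 of the 9 genes, MMP7, MMP20, MMP27, MMP8 and MMP10. Entries for MMP1, MMP3, MMP12 and MMP13 were missing. MMP7 is printed first because, of these 5, it alone held the letters TGAGTCA, a site of the AP-1 family, searched on both strands (the other strand reads TGACTCA), which are in capitals. MMP20 and MMP27 follow because their promoters were overlapped by a peak most often, in 5 and 4 of the 6 lists, and their CpG dinucleotides are in capitals. All 3 are on the reverse strand and are printed 5′ to 3′, MMP7 from chr11:102530698-102530997, MMP20 from chr11:102625283-102625582 and MMP27 from chr11:102705720-102706019.
MMP7: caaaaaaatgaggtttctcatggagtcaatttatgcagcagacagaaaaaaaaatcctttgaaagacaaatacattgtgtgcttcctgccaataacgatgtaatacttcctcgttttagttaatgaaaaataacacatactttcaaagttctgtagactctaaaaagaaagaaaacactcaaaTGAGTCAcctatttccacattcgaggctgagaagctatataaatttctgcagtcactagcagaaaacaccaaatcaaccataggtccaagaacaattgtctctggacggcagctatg
MMP20: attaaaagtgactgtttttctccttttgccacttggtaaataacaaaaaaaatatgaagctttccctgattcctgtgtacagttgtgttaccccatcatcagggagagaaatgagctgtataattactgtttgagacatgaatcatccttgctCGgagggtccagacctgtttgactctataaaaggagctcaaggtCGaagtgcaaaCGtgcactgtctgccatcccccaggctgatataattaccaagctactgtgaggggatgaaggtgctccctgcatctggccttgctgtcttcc
MMP27: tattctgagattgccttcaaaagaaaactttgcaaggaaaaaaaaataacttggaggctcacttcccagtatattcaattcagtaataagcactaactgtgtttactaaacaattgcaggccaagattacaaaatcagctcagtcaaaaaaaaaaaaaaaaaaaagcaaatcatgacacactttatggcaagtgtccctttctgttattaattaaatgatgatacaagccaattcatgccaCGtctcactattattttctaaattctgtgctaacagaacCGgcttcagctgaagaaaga

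TGAGTCA stood at position -67 of MMP7, counted from the start site, and 3.68% of 15315 protein-coding promoters of the same length held it. The letters TATAAA, also searched on both strands and not overlapping TGAGTCA in MMP7, were in 4 of the 5 promoters (MMP7, MMP20, MMP8 and MMP10) and in 9.64% of all. These matches describe the windows and say nothing of binding. The 5 promoters were poor in CpG, with 4 in MMP7, 3 in MMP20 and 2 in each of MMP27, MMP8 and MMP10, against a median of 22 over all promoters. Over the whole cluster window there were 7.49 CpG per kb, against 10.0 per kb on chromosomes 1 to 22 and X and 29.6 per kb in the HOXD window of 2q31. A TSS mark, meaning at least 1 peak within 1 kb of an annotated start site, was present in all 6 samples for 27.3% of the genes with 4 CpG or fewer in this promoter window and for 8.19% of those with more. MMP20 and MMP27 had one in all 6 samples, MMP7, MMP8 and MMP10 in 5.

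Peaks lay along the cluster from MMP7 to MMP12 in 5 lists and from MMP20 to MMP12 in 232P replicate 1, and none lay over MMP13 in any list. The lists held 242 and 148 peaks of the window in WT, 230 and 121 in 231K and 138 and 168 in 232P (replicates 1 and 2), of 285800, 222176, 271390, 212335, 147107 and 199671 peaks on chromosomes 1 to 22 and X. Coverage, the percent of bases under a peak, was 38.9% and 58.2% of the window in WT, 38.5% and 60.7% in 231K and 10.8% and 47.4% in 232P. On chromosomes 1 to 22 and X it was 7.05% and 9.32%, 6.49% and 9.57%, and 2.32% and 6.99% in the same order. The replicate 2 sample was the higher of each pair, 232P replicate 1 was far below the other 5, and the ranges of the 3 genotypes overlapped. Replicate 1 lists had narrower peaks than replicate 2 lists, with a smallest width of 175 to 179 bp against 240 to 262 bp. Their part in the coverage was not tested.

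**Figure D1:**
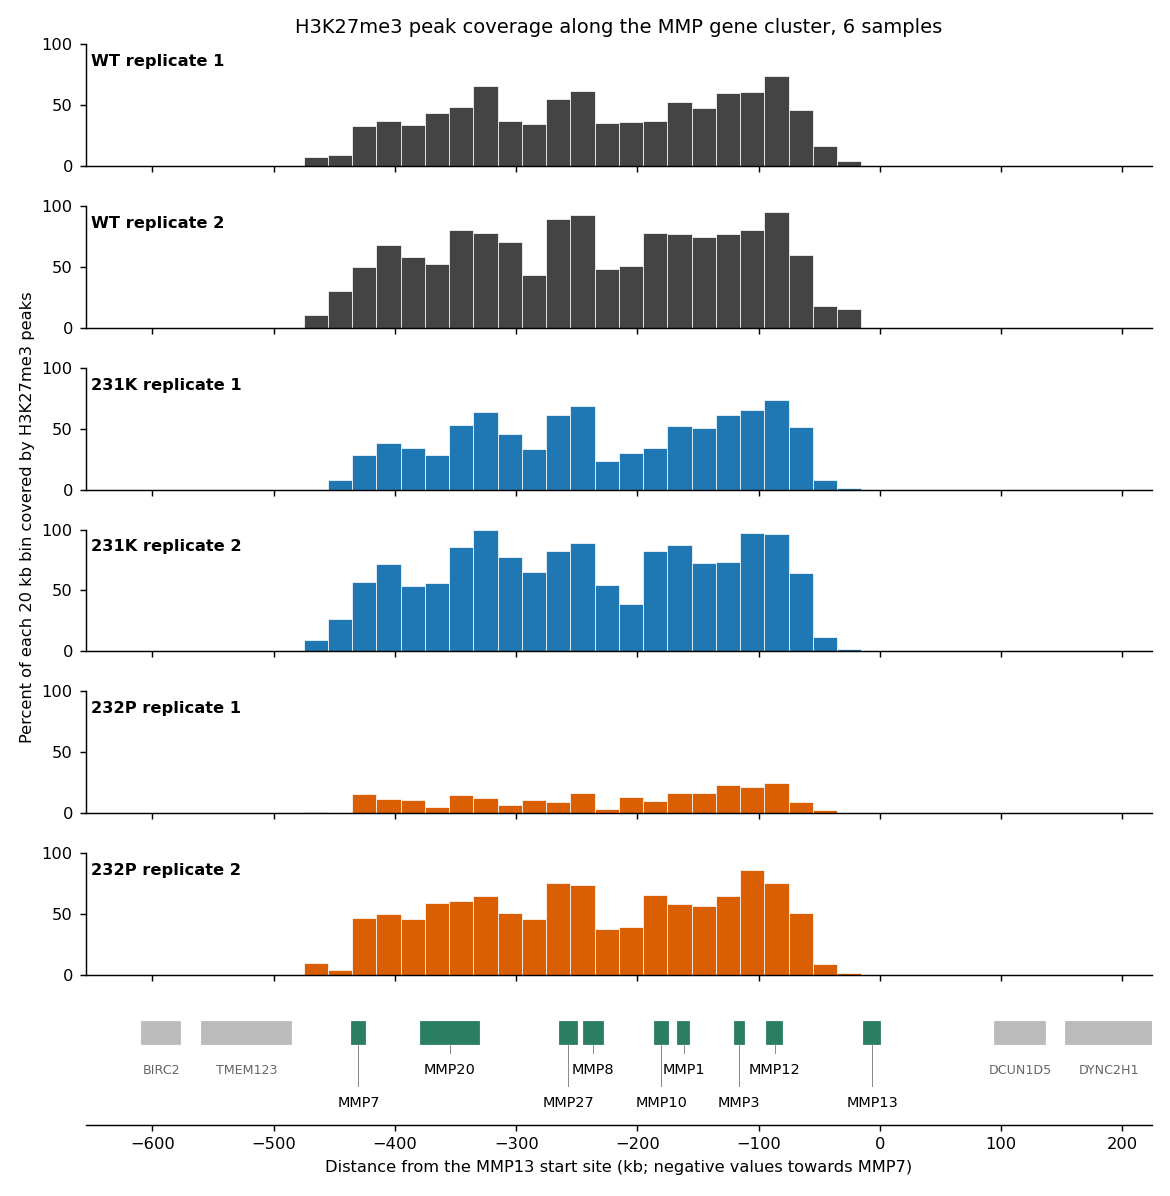
Percent of each 20 kb bin covered by H3K27me3 peaks (vertical axes, 0 to 100%) against the distance from the MMP13 start site in kb, 1 panel for each of the 6 samples, with the MMP genes (green) and their neighbours (grey) below. Bars stand between MMP7 and MMP12 in every panel, are lowest in 232P replicate 1, and are at 0 over MMP13 and over the neighbours.

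The window was covered more than the genome in 6 of 6 samples, by 35.5 percentage points on average (SD 15.5, n = 6). This passed a two-sided exact sign-flip permutation test over samples (p = 0.03125, the smallest that 6 samples allow, adjusted p = 0.0391 over 5 comparisons). The window and those compared below were chosen with earlier results of these data known. The 6 samples are duplicates of 3 genotypes and not 6 independent lines, so this p-value measures only the spread between these samples. Against chromosome 11 alone the difference was 37.2 points, also in 6 of 6 samples, with the same exact p. With only the peaks whose -log10 q-value reached 5, neither difference passed (19.0 and 20.04 points, adjusted exact p = 0.0781), and in 232P replicate 1 the window was then covered less than the genome (0.114% against 0.421%). Cut into 6369 tiles of the window's length, the genome had a median tile coverage of 0 to 0.0934% in the 6 lists, and the cluster lay above 93.4% to 97.8% of tiles.

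Set beside other gene clusters, the MMP window was covered more than the CXC chemokine and HOXD windows, and no one direction was found against the IL1 family. The IL1 family window of 2q14 was covered to 43.2% and 51.5% in WT, 40.8% and 53.7% in 231K and 15.4% and 40.1% in 232P. The MMP window was the lower of the 2 in the replicate 1 sample of each genotype and the higher in each replicate 2 sample, and the mean difference of 1.67 points (SD 5.94) had an exact p of 0.469. The CXC chemokine window of 4q13 was covered to 33.6% and 47.3% in WT, 32.6% and 47.0% in 231K and 7.96% and 38.9% in 232P. There the MMP window was higher in 6 of 6 samples, by 7.87 points (SD 3.99, exact p = 0.03125, adjusted p = 0.0391). With no flanks the difference was 13.7 points and with 50 kb on each side 2.91 points, so its size depends on the flanks. The HOXD window, which holds patterning genes, had 4.52% to 10.8% and was 35.2 points below the MMP window (6 of 6 samples, same exact p). With only the peaks whose -log10 q-value reached 5, these differences were 8.58 and 19.4 points and neither passed (adjusted exact p = 0.0781).

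**Figure D2:**
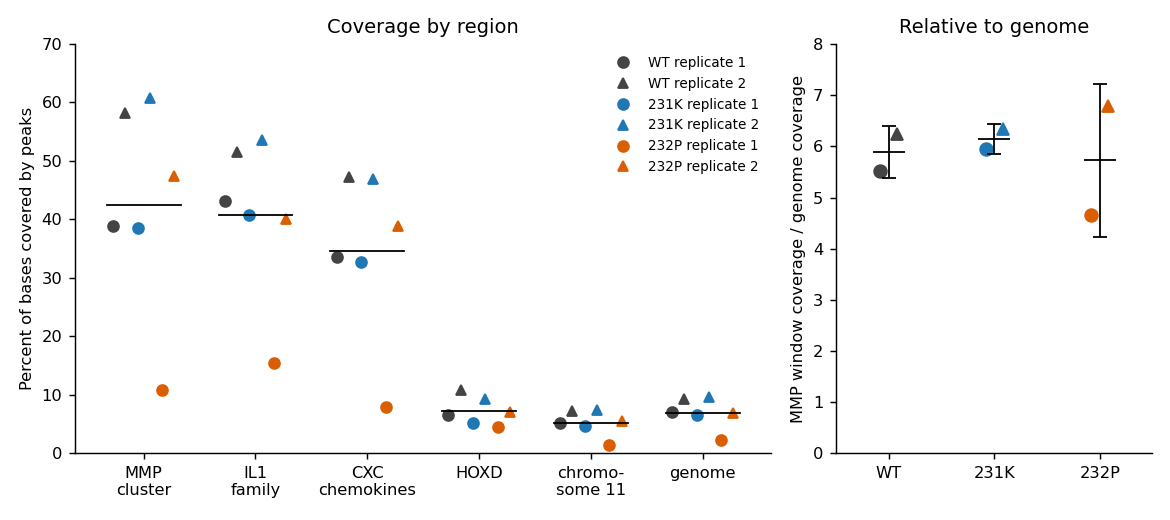
Left, percent of bases covered by peaks in the MMP window, 3 other gene cluster windows, chromosome 11 and chromosomes 1 to 22 and X, with 1 point per sample and a line at the mean of 6. Right, MMP window coverage divided by genome coverage for each genotype, with the mean and SD of 2 samples. The groups overlap, and all points lie between 4.67 and 6.78.

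No difference between genotypes in window coverage passed the test, and the duplicates of each genotype were far apart. The WT mean was 48.6% ± 13.6 (SD, n = 2), that of 231K 49.6% ± 15.7 (n = 2) and that of 232P 29.1% ± 25.8 (n = 2). The mean of the 4 Tau-KO samples minus that of WT was -9.19 points (exact permutation p = 0.733, where 4 against 2 samples can go no lower than 0.0667). The difference was 1.08 points for 231K (exact p = 1) and -19.5 points for 232P (exact p = 0.667, smallest possible 0.333), and with 6 contrasts all adjusted exact p-values were 1. Within a replicate number 232P was lower than WT both times, by -28.1 points (replicate 1) and -10.8 points (replicate 2). The 231K differences were -0.398 and 2.55 points in the same order. These means rest on single samples. Leaving out 1 sample at a time gave -18.8 to 0.445 points for Tau-KO, -10.03 to 12.2 for 231K and -37.7 to -1.19 for 232P.

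Genome coverage moved with the coverage of the cluster. Within replicate 1 the cluster had 0.990 times the WT coverage in 231K and 0.278 times in 232P, while the genome had 0.921 and 0.329 times. Within replicate 2 the cluster was at 1.04 and 0.814 times WT, and the genome at 1.03 and 0.749 times. Cluster coverage divided by genome coverage was 5.52 and 6.24 in WT, 5.94 and 6.35 in 231K and 4.67 and 6.78 in 232P, and the 3 ranges overlapped. Its means were 5.88 ± 0.507, 6.14 ± 0.288 and 5.72 ± 1.495 (SD, n = 2 each). The Tau-KO samples differed from WT by 0.0507 in this ratio (exact p = 0.933), 231K by 0.259 (exact p = 0.667) and 232P by -0.158 (exact p = 1).

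Among the collagenases, MMP1 and MMP8 were marked and MMP13 was not. MMP1 (ENSG00000196611.6, chr11:102789401-102798160), interstitial collagenase, had 76.1% and 83.6% of its gene body covered in WT, 55.5% and 93.4% in 231K and 23.4% and 58.6% in 232P. Both 232P samples lay below their WT counterparts of the same number, while 231K lay on both sides of WT. MMP8 (ENSG00000118113.12, chr11:102711796-102727050), the collagenase of neutrophils, had 45.2% and 69.97%, 46.7% and 71.7%, and 4.79% and 40.3%. Here too both 232P values were the lowest of their replicate number. MMP13 (ENSG00000137745.13, chr11:102942995-102955732), which cuts type II collagen of cartilage, had 0% in all 6 samples, and the nearest peak lay 23145 to 46780 bp from its outermost start site.

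The stromelysins were both marked, MMP3 more widely than MMP10 in every list. MMP3 (ENSG00000149968.12, chr11:102835801-102843609), an activator of other proenzymes, was covered to 89.1% and 100% in WT, 90.4% and 100% in 231K and 36.7% and 100% in 232P. Each of the replicate 2 lists held 1 peak that ran over the whole gene, all 10 exons included. MMP10 (ENSG00000166670.10, chr11:102770502-102780628) had 41.3% and 77.3% in WT, 25.2% and 78.7% in 231K and 6.22% and 78.7% in 232P. In replicate 1 both Tau-KO values of MMP10 were below WT, and in replicate 2 the 3 genotypes were within a few points.

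MMP12, MMP27 and MMP20 were covered widely, and MMP7 sparsely. MMP12 (ENSG00000262406.3, chr11:102862736-102874982) had 72.2% and 100% in WT, 63.96% and 93.5% in 231K and 17.96% and 84.8% in 232P, lower than WT of the same number in all 4 Tau-KO samples, although the groups overlapped. MMP27 (ENSG00000137675.5, chr11:102691487-102705769), one of the less studied members, had 80.1% and 93.05%, 73.4% and 95.7%, and 16.3% and 84.3%. MMP20 (ENSG00000137674.4, chr11:102576832-102625332), at 48501 bp the longest of the 9 genes, had 43.3% and 67.1%, 39.8% and 71.7%, and 11.1% and 57.4%. MMP7 (ENSG00000137673.9, chr11:102520508-102530750), the most centromeric member, had 2.18% and 22.4% in WT, 12.3% and 37.5% in 231K and 0% and 24.8% in 232P. MMP7 was the 1 marked member in which both 231K samples were above their WT counterparts and 232P replicate 2 was above WT as well.

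**Figure D3:**
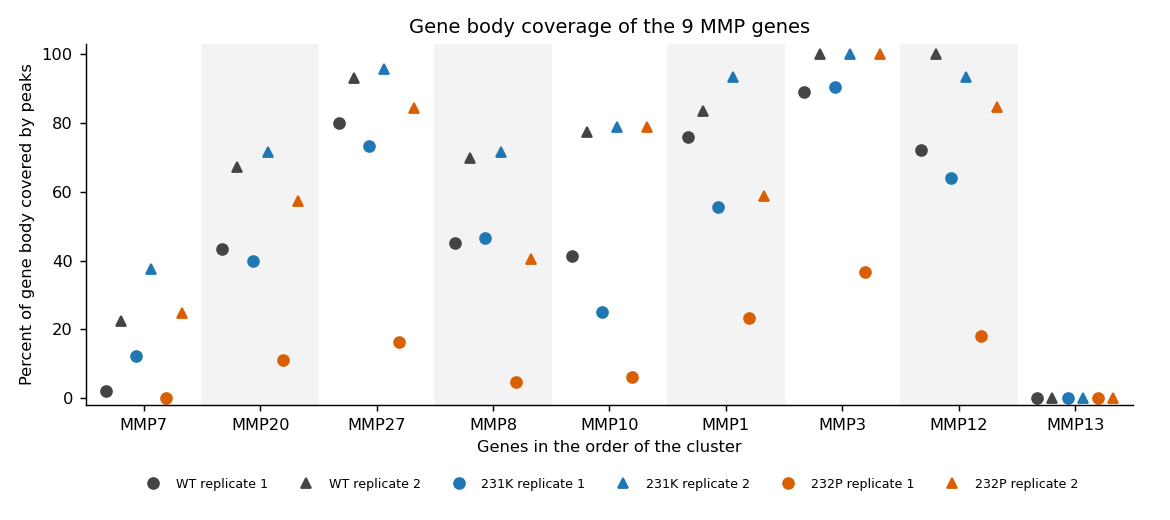
Percent of each gene body under a peak, with the 9 genes in the order of the cluster and 1 point per sample. MMP3 was highest with a mean of 86.0%, MMP13 was at 0% in all 6 samples, and 232P replicate 1 was the lowest point of every marked gene.

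By the mean over 6 samples the order was MMP3 (86.0%), MMP27 (73.8%), MMP12 (72.1%), MMP1 (65.1%), MMP10 (51.2%), MMP20 (48.4%), MMP8 (46.5%), MMP7 (16.5%) and MMP13 (0%). Neighbours in this order overlapped in their ranges over samples, except MMP13, whose values were all 0 and were met by MMP7 only in 232P replicate 1. With 100 kb or more of gene and flanks, 5831 genes could be set beside the cluster window. The 5 whose coverage over the 6 samples was closest, by Euclidean distance in percentage points, were RNF128 (3.63), ESR1 (3.81), KLRD1 (3.84), ENSG00000282218 (5.05) and PPP4R4 (5.09), and ESR1 for example had 41.5% and 57.6% in WT, 39.3% and 60.4% in 231K and 12.1% and 45.1% in 232P. More than 50% of the body was covered in at least 4 samples in 4 of the 9 members (MMP27, MMP1, MMP3 and MMP12), against 5.26% of all protein-coding genes, and 73.7% of all protein-coding genes had no covered base in any sample.

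At the start sites, WT and 231K had the same number of marked genes. A TSS mark was present at 8 of the 9 genes in both WT samples, both 231K samples and 232P replicate 2, and at 5 of 9 in 232P replicate 1, where MMP7, MMP8 and MMP10 had none. Of all protein-coding genes 18.3% and 18.4% had one in WT, 16.8% and 18.3% in 231K and 14.5% and 15.8% in 232P. MMP20, MMP27, MMP1, MMP3 and MMP12 were marked in all 6 samples (5 of 9, against 11.4% of all genes), and 8 of 9 in both WT samples (against 16.5%). These start sites are not independent, since single stretches of peaks ran over more than 1 gene. A TSS mark was called lost when both WT samples had it and both samples of the line lacked it, and gained in the opposite case. With all deposited peaks none of the 8 was lost in 231K or in 232P, where 2.52% and 7% of the genes marked in both WT samples were, and none of the 9 was gained, against 0.165% of all genes in 231K and 0.0651% in 232P. Without 232P replicate 1 the genes marked in all samples were 8, without 232P replicate 2 the genes lost in 232P were 3, with equal numbers of strongest peaks 1 (MMP8) was lost in 232P, and among peaks whose -log10 q-value reached 5 no member was marked in all samples and 3 in both WT samples. With a sample left out the rules ask less, so such counts can rise for that reason alone. The shares of all genes in these settings were not computed.

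Fold enrichment, the reads at the summit over the local background with 1 added to each, was between 2.28 and 9.59 for the strongest peak that reached within 1 kb of a start site. Such a peak is placed by its reach and not by its summit. Of the 45 peaks, 25 had their summit within 1 kb of a start site, and the summits of 1 gene differed in place between lists, so the values are not those of 1 position. For MMP3 the value was 6.75 and 6.03 in WT, 7.38 and 9.59 in 231K and 4.78 and 5.74 in 232P. Of these 6 summits 1 lay within 1 kb of a start site of MMP3, the farthest being that of 231K replicate 2, 4417 bp away and past the 3′ end of the gene, and they spanned 10805 bp. The 231K values were above and the 232P values below those of WT, as in 3.46% of the 2281 genes marked in all 6 samples, but of peaks with summits at different places, and nothing is read from it for the start sites. For MMP1 it was 5.53 and 7.15, 5.57 and 7.92, and 4.47 and 6.62, so that the groups overlapped. Within each replicate number 231K was above and 232P below WT, which was not tested. For MMP20, which has 3 start sites, it was 6.35 and 6.30, 4.69 and 8.12, and 3.98 and 5.30, from summits up to 52738 bp apart. For MMP27 it was 4.73 and 6.47, 6.97 and 7.09, and 4.97 and 5.02. Both 232P values were below both WT values in 2 of the 5 members marked in all 6 samples (MMP20 and MMP3), against 35.3% of the 2281 genes, and both 231K values above them in 2 (MMP27 and MMP3), against 17.1%. MMP12 had 4.76 and 5.90, 5.41 and 6.44, and 3.98 and 5.74, all overlapping, with the same order within each replicate number as in MMP1. MMP8 had 4.30 and 5.88, 4.10 and 5.42, and, in 232P, none and 3.09, the lowest of its replicate number. MMP10 had 4.58 and 4.25, 2.98 and 6.09, and none and 4.41, with 231K on both sides of WT. The lowest value of the 6 lists, 2.28, was that of MMP7 in WT replicate 2, where the -log10 q-value was 1.21.

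The -log10 q-values of the same peaks, which depend on the depth of a list, ran from 1.21 to 15.6. MMP3 had 8.48 and 7.84 in WT, 9.69 and 15.6 in 231K and 3.75 and 6.62 in 232P (231K above and 232P below WT, as in 8.86% of the 2281 genes). These are the peaks already described, with the same summits, and not a further measurement of the start sites. MMP1 had 6.29 and 9.33, 7.22 and 11.5, and 3.06 and 7.43, and MMP20 had 7.64 and 7.60, 4.77 and 12.2, and 2.41 and 5.11. MMP27 had 4.78 and 8.77, 8.80 and 9.63, and 3.75 and 5.24. Both 232P values were again below WT for MMP20 and MMP3, against 54.5% of the 2281 genes, and both 231K values above WT for MMP27 and MMP3, against 18.5%. The stromelysin MMP10 reached 4.39 and 4.26, 2.10 and 7.69, and none and 3.69, and the collagenase MMP8 3.86 and 6.77, 3.38 and 6.15, and none and 1.82. MMP7 stayed between 1.21 and 3.63 in the 5 lists that had a peak there. In 232P replicate 1 none of these peaks passed 3.75, and in 231K replicate 2 a value above 9 was reached by those of MMP20, MMP27, MMP1, MMP3 and MMP12.

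**Figure D4:**
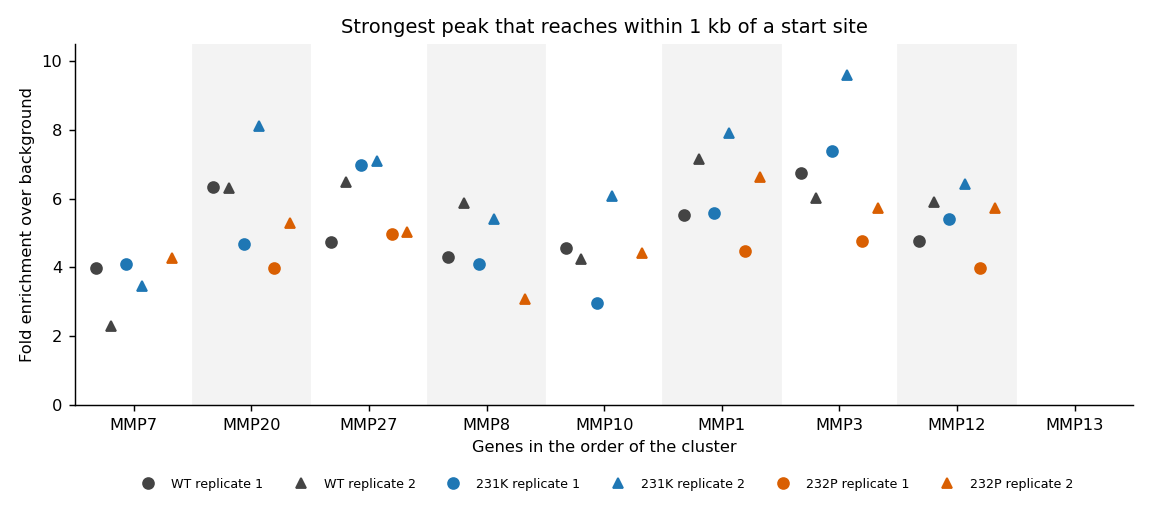
Fold enrichment over background, at its summit, of the strongest peak that reaches within 1 kb of a start site, with the 9 genes in the order of the cluster and 1 point per sample that had such a peak. Values run from 2.28 (MMP7) to 9.59 (MMP3), MMP13 has none, and MMP7, MMP8 and MMP10 have none in 232P replicate 1.

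Peaks of the window were close in height to those of the rest of each list, and many were shallow. Their median fold enrichment was 3.59 and 4.20 in WT, 3.69 and 4.41 in 231K and 3.70 and 3.97 in 232P, against 3.38 and 3.78, 3.61 and 3.75, and 3.97 and 3.61 over all peaks of each list. It was above the median of the list in 5 samples and below it in 232P replicate 1. A -log10 q-value of at least 5 was reached by 15.3% and 30.4% of window peaks in WT, 14.3% and 40.5% in 231K and 0.725% and 23.8% in 232P, against 12.4% and 20.3%, 13.5% and 23.6%, and 7.06% and 14.6% of all peaks. In 232P replicate 1 that was 1 peak of 138. The lowest background of a list was 1.52 and 1.38 reads in WT, 1.44 and 1.399 in 231K and 1.01 and 1.27 in 232P, the last 2 being the lowest.

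The strongest peak of the window had its summit beside rather than inside a member in most lists. In WT it lay 5416 bp (replicate 1) and 6735 bp (replicate 2) from MMP20 on the side of its start, with fold enrichments of 6.75 and 8.83, and in replicate 1 a peak over MMP3 had the same fold enrichment and -log10 q-value. In 231K replicate 1 it lay inside MMP20 (8.07), and in 231K replicate 2 it was a peak of 26032 bp over MMP3 with 22 reads at a summit past the 3′ end of the gene, over a background of 1.399 (9.59). In 232P replicate 1 it lay between MMP1 and MMP3 (5.97) and in 232P replicate 2 at the 3′ end of MMP12 (7.94).

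Joining the peaks of all lists gave 86 marks in the window. Of these 25 were present in all 6 samples, or 29.1%, against 12.1% of the 279749 marks of chromosomes 1 to 22 and X, and their median width was 9660 bp against 5221 bp. Both WT samples had 45 (52.3%, against 30.0%). Of those 45, 3 were lost in 231K (6.67%, against 10.7%) and 8 in 232P (17.8%, against 22.9%), and 2 of the 86 were gained in 231K (2.33%, against 2.33%) and 0 in 232P (against 0.294%). These counts depend on the number of samples that the rule asks for. When a WT sample or a sample of the line was left out, the rule asked less, so counts could rise for that reason alone. Marks were also joined anew from the remaining lists. For losses in 232P without 231K replicate 2 only this changed. Marks lost in 231K were 11 without WT replicate 1, 13 without WT replicate 2 and 14 without 231K replicate 2, and those lost in 232P were 22 and 20 without WT replicate 1 and 2, 15 without 231K replicate 2 and 20 without 232P replicate 2. Gains in 231K were 8 without WT replicate 2 and 5 and 7 without 231K replicate 1 and 2, and gains in 232P were 6 without WT replicate 2 and 5 and 2 without 232P replicate 1 and 2. The shares of all marks called the same way were not computed with samples left out or in the settings below, so nothing is read from these counts. With only the peaks whose -log10 q-value reached 5, and likewise with peaks within 1 kb merged, 1 and 10 marks were present in all samples, while in both settings 0 were lost in 231K, 2 in 232P and 0 gained in 231K. The 8 marks lost in 232P were at most 1244 bp wide, with 1 in MMP7, 1 in MMP20, 1 in MMP8 and the other 5 between genes, and the 3 lost in 231K were among them. The widest mark, 46632 bp over MMP27 and the 3′ part of MMP8, had a peak of each of the 6 samples. Presence means any overlap here, and when 50% of a mark had to be covered none was present in all samples and none was gained in 231K.

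The mark with the highest of the lowest -log10 q-values over the 6 lists lay between MMP1 and MMP3, chr11:102815332-102826202, in an intron of WTAPP1, a transcribed pseudogene that spans MMP10 and MMP1 on the opposite strand. Its best peak had a -log10 q-value of 7.83 and 8.45 in WT, 5.51 and 8.30 in 231K and 5.26 and 5.86 in 232P. Its fold enrichments were 6.27 and 6.73, 5.05 and 6.33, and 5.97 and 5.74. On both scales the 232P values lay below both WT values, as they did in 27.9% (fold enrichment) and 46.6% (-log10 q-value) of the 33886 marks present in all samples, and 231K overlapped both groups. It was the 1 mark of the window above 5 in every list. The next 3 by the same measure were between MMP20 and MMP27, at MMP3 and in MMP20. The 151 bases around the summit of the mark with the highest fold enrichment and -log10 q-value, that of WT replicate 2, are shown with CpG in capitals (hg38, forward strand, chr11:102819624-102819774); they held 3 CpG.
Summit of WT replicate 2: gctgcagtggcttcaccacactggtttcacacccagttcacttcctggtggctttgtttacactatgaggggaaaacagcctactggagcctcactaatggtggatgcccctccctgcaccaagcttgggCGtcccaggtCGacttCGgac

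The stretch of peaks ended short of MMP13 at different places. Peaks no more than 20 kb apart formed 1 run of 436.755 and 434.837 kb in WT, 417.385 and 424.949 kb in 231K and 376.091 and 426.612 kb in 232P. The run stopped 10408 and 12087 bp before the 3′ end of MMP13 in WT, 21895 and 22028 bp in 231K and 34043 and 20311 bp in 232P. Both WT samples were thus nearer to MMP13 than all 4 Tau-KO samples, a pattern noticed after the values were seen and given with no test. The last WT peaks were weak, and with peaks at q under 0.05 only, WT replicate 1 ended at 21.905 kb and the groups overlapped. Of the 22 bins of 20 kb in the window with a peak, coverage was higher in both WT samples than in all 4 Tau-KO samples in 2, those nearest MMP13, and lower in none. Over the genome this held for 10.0% of 44171 such bins, and the opposite for 0.0973%.

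Genes next to the cluster had no mark. TMEM123 and BIRC2 on the side of MMP7 and DCUN1D5 and DYNC2H1 on the side of MMP13 had neither a TSS mark nor a covered base in any of the 6 samples.

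Genes of the pathway elsewhere in the genome can be read beside the 11.4% of all protein-coding genes with a TSS mark in all 6 samples. Of 14 further metalloproteinase genes, MMP25 was marked in 6 samples, MMP9, a gelatinase, in 5 (not in 231K replicate 1), MMP26 in 5 (not in 232P replicate 1), and 11 in none. Of the 4 TIMP genes, which encode inhibitors of these enzymes, TIMP1 was marked in both WT and both 231K samples and in neither 232P sample, a loss shared by 7% of the genes marked in both WT samples, and TIMP2, TIMP3 and TIMP4 in none. PLG, which encodes plasminogen, was marked in all 6 samples, while PLAU and PLAT, which encode its activators, and PLAUR, which encodes a receptor, were marked in none. In the other gene clusters compared, 7 of 9 IL1 family genes and 7 of 9 CXC chemokine genes were marked in all 6 samples, and in HOXD 1 of 9, with HOXD12 lost in 232P. The exceptions in the IL1 and CXC clusters were IL1A, marked in none, CXCL8, marked in 4, and IL36A and CXCL6, marked in 5 each.

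Marker genes were read as a check of the labelled cell type. Of 8 adrenergic neuroblastoma genes 6 had no TSS mark in any sample. Of 7 mesenchymal and fibroblast genes PRRX1 was marked in all 6, FN1 and COL1A1 in 1 each and 4 in none. Of 4 macrophage genes ITGAM was marked in all 6 and 3 in none. Of 5 genes taken as silent Polycomb targets PAX7 was marked in all 6, 3 in none and MYOD1 in both WT samples and 232P replicate 1 but neither 231K sample, a loss in 231K as in 2.52% of the genes marked in both WT samples. Lack of the mark does not show that a gene was expressed.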

How the data were processed

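H3K27me3 ChIP-seq of SH-SY5Y cells gave 1 peak list for each of 6 ChIP samples. According to the methods, the authors used BWA on trimmed reads with hg38 as the genome, and MACS (version 2) with a broadPeak setting for the peaks of each sample, while the deposited lists had the 10 narrowPeak columns. The threshold and control library are not given in the sources used here. The deposited fold enrichment is a ratio of summit reads to local background. The lists also hold, as deposited, the p-value and q-value of each summit as -log10. In the deposited score column stood the -log10 q-value multiplied by 10. No values were normalized between samples, and the lists hold no read totals. Summit height and background were recovered from ratio and p-value, whole reads being found for 100% of peaks within 0.001 of the -log10 p-value. No peak ran past a chromosome end of hg38. Height, coverage and presence functions were tested on simulated data.

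Groups and replicate numbers came from the sample labels. Peaks were placed on GENCODE release 44 with a minimum overlap of 1 bp. Groups were compared by two-sided exact permutation over samples, windows by exact sign flips, with Benjamini-Hochberg adjustment over 6 and 5 tests (Python 3.11.15, numpy 2.4.6, pandas 2.3.3, scipy 1.17.1). With 2 samples a group no genotype test could reach 0.05, and p-values measure only the spread between these samples. Named were all 9 members, the 2 nearest genes on each side, the pathway genes marked in all samples or lost or gained, the 5 most alike genes and the strongest peaks and marks; other marker and pathway genes were named after their values were seen. A few genes of the marker and pathway lists are not reported here. Members, windows and lists were chosen with earlier results of these data known. Alternatives were other thresholds, equal peak numbers, lists scaled to the lowest background, merged peaks, other flanks and start-site windows, and each sample left out.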

Additional observations from a re-analysis of the deposited data

Results flagged for a closer look

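Gaps within the 4 Tau-KO samples and the sides on which the lines lay were examined for 17 measures, and chance gives such a gap in about 1 in 20 groups. That rate is for independent values, which duplicates of the same line are not. MMP13 coverage, 0% in every sample, was among the measures and could show no gap. In 2 measures 232P replicate 1 stood apart from the other Tau-KO samples. Its coverage of MMP3 was 36.7%, against 90.4%, 100% and 100%, where 100% is the highest value possible. Its run of peaks ended 34.043 kb before MMP13, against 20.311 to 22.028 kb. With equal numbers of strongest peaks this was 34.043 kb against 21.895, 33.276 and 34.784 kb, so it no longer stood apart. In lists scaled to the lowest background it stayed at 34.043 against 20.311 to 22.028 kb. 232P replicate 1 also had the fewest peaks (147107), the lowest genome coverage (2.32%) and the lowest background (1.01 reads). Their part in the coverage of MMP3 was not tested, nor was that in the distance beyond these settings. For the strongest peak reaching a start site of MMP3, both 231K samples had a higher fold enrichment than both WT samples and both 232P samples a lower one, the line means being 3.23 apart, and the difference was not tested. The 6 summits spanned 10805 bp, with 1 of them within 1 kb of a start site, so these are not values of 1 position. Both 232P lists had lower backgrounds (1.01 and 1.27 reads) than the other 4 (1.38 to 1.52), and their part in this was not tested.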

How the results depend on the processing

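Beside the 6 left-out samples, 178 recomputed values were obtained. Of these, 147 kept their direction and side of the threshold or, without a test, stayed near the value reported. Near means within 1.5 times (counts) or 1 SD (other values). No genotype test could reach 0.05 in any setting, so for those values only the direction could change. Chosen after seeing the data, gaps of 10 kb in the run of peaks moved the mean Tau-KO minus WT distance to MMP13 from 13.3 to 109.8 kb, gaps of 50 kb left it at 13.3 kb, and it was 7.57 kb at q under 0.05 and in scaled lists. With only the peaks whose -log10 q-value reached 5, the window was still covered more than the genome by 19.0 points, chromosome 11 by 20.04, CXC chemokines by 8.58 and HOXD by 19.4, each with an adjusted exact p of 0.0781, and in 232P replicate 1 the window fell to 0.114% against 0.421% of the genome. There the difference from the IL1 family turned to -0.914 points and the Tau-KO minus WT ratio to -0.183, which was also -0.183 with equal numbers of strongest peaks and -0.0482 in lists scaled to the lowest background. Merging peaks within 1 kb turned 231K minus WT coverage to -0.648 points.

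Counts of members marked at the start site fell to 0 in all samples and 3 in both WT samples at this q-value limit, and MMP8 (1) was lost in 232P with equal numbers of peaks. Marks in all samples went from 25 to 1 at that threshold, 10 with merging and 0 when 50% had to be covered. Marks lost in 232P went from 8 to 2, 5 and 2 (threshold, equal numbers, merging) and in 231K from 3 to 0, 1 and 0. Gains in 231K went from 2 to 0 in these 3 settings, in scaled lists and at 50% covered, and to 1 at q under 0.05, where gains in 232P went from 0 to 1, as with equal numbers and scaled lists. The causes were not tested, and the shares of all genes and marks in these settings were not computed.

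Leaving out 1 sample at a time gave differences from the genome of 32.3 to 40.9 points, chromosome 11 33.9 to 42.7, CXC 6.69 to 8.87, HOXD 31.9 to 41.0 and IL1 0.537 to 2.91, with 5 samples too few for the exact test to pass. Coverage differences ran from -18.8 to 0.445 (Tau-KO), -10.03 to 12.2 (231K) and -37.7 to -1.19 (232P), and ratio differences from -0.308 to 0.473, -0.0993 to 0.618 and -1.22 to 0.899. Marked members numbered 5 to 8 in all samples, 8 to 8 in both WT and 0 to 3 lost in 232P, the 3 (MMP7, MMP8 and MMP10) being lost without 232P replicate 2. Marks ran from 25 to 37 in all samples, 3 to 14 lost and 2 to 8 gained in 231K, and 8 to 22 lost and 0 to 6 gained in 232P. Such counts can rise because the rules then ask for fewer samples, and the shares of all genes and marks were not computed for them.

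Permuting within replicate number, as a replicate block, left the Tau-KO, 231K and 232P coverage differences at -9.19, 1.08 and -19.5 points and passed no threshold. Differences between replicates 1 and 2 over 6369 tiles correlated at 0.921 to 0.931 between genotypes, as a description, and the labels give no shared batch. The lists hold no read totals, so depth is known only through the background, which was lowest in 232P replicate 1, where summits in the window had at most 11 reads.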
